A study of Homo sapiens with 8 samples.

Results

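The genes described here are 9 members of the HLA class I antigen presentation pathway, namely HLA-B, HLA-C, HLA-E, B2M, TAP1, TAP2, TAPBP, PSMB8 and PSMB9. They were chosen by symbol and matched to 1 primary-assembly Ensembl identifier each, among the 64253 genes counted in every library. All 9 passed the filter on low counts, which left 20305 genes for testing. HCT-8 cells come from a human colorectal tumour and are sensitive to 5-fluorouracil (5-FU), and HCT-8/FU is a 5-FU-resistant line paired with them. RNA-seq libraries were made in 4 groups of 2 replicates. Both lines were grown in unconditioned medium. HCT-8 cells were also grown in conditioned medium (CM) collected over 48 h, either from cultures of HCT-8 itself (called self-CM here) or from resistant cultures (called FU-CM here). HCT-8/FU is a single resistant line, so that resistance and any other difference between the lines cannot be told apart. No source used here states that the replicates were separate cultures, and p-values then measure only the spread between these libraries.

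HLA class I molecules show peptides from inside the cell to CD8+ T cells. A heavy chain, such as HLA-B, HLA-C or HLA-E, pairs with the light chain beta-2-microglobulin, the product of B2M. Peptides are cut by the proteasome, in which PSMB8 and PSMB9 are the inducible catalytic subunits of the immunoproteasome, and are carried into the endoplasmic reticulum by the TAP1-TAP2 transporter. Tapasin, the product of TAPBP, links the empty heavy chain to TAP. Most of these genes are induced by interferon, and loss of class I presentation is a known route by which colon tumours evade T cells.

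The libraries held between 5804124 and 34881349 counts on genes. In 3 of them (HCT-8 replicate 1, HCT-8/FU replicate 2 and self-CM replicate 1) between 20% and 29.6% of the records were not aligned, against 3.58% to 4.43% in the other 5. Deviations of genes from their mean over the 8 libraries followed GC content, with a Spearman's rho across genes of -0.481 and -0.448 in HCT-8/FU, 0.371 and 0.527 in self-CM, 0.0509 and 0.211 in HCT-8, and -0.0641 and -0.061 in FU-CM. For this reason each test is also given, where it matters, after a correction of every library for GC content and gene length, which removes any change that follows them, whatever its origin. The share of higher genes among all differentially expressed (DE) genes depended on this and on the scaling. In HCT-8/FU against HCT-8 it was 61.9%, with another TMM reference library 72.6%, and with the correction 46.2%. In FU-CM against self-CM it was 86.2% and 50.5% with the correction. In self-CM against HCT-8 it was 47.3% and 36.2% with DESeq2's size factors. In FU-CM against HCT-8 it was 68.6%, 81.2% with the other reference and 42.2% with the correction. The 8 epithelial markers summed to between 8500 and 10600 CPM (reads counted for a gene relative to the size of its library), while PTPRC, CD3E and MS4A1, which define leukocytes and lymphocytes, had no count in any library. The 6 leukocyte markers together reached at most 2.15 CPM, and of the 5 fibroblast markers COL1A1 made up nearly all of the summed 8.19 to 13.8 CPM. The class II genes HLA-DRA, HLA-DRB1 and HLA-DQA1 had no count in any library. The whole list of 10 class II genes, which includes CIITA and CD74, summed to between 21.7 and 27.7 CPM. HLA-DMA was the highest of them, at 11.5 to 14.6 CPM.

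To compare levels between genes, the normalized CPM was divided by the length in kb of the canonical transcript. On that scale HLA-C was highest, with a mean over the 8 libraries of 270 CPM per kb, followed by B2M at 164, HLA-B at 135 and HLA-E at 122 CPM per kb. TAPBP followed at 52 CPM per kb, PSMB8 at 30.2 and TAP1 at 20, and the lowest were TAP2 at 4.09 and PSMB9 at 1.34 CPM per kb. HLA-C led and PSMB9 came last under each scaling tried, but the order of B2M, HLA-B and HLA-E between them rests on the transcript length used. With the union of all annotated exons as length, HLA-E was second at 107 CPM per kb, followed by B2M at 49.5 and HLA-B at 44.8.

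**Figure D1:**
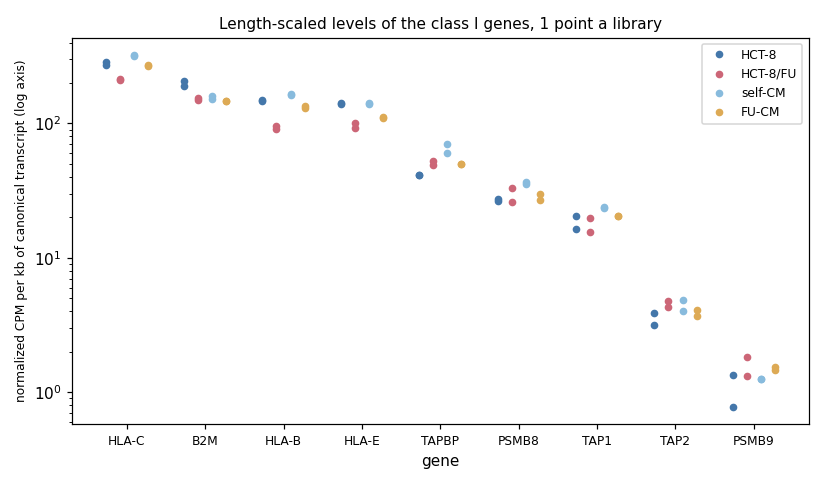
Normalized CPM per kb of canonical transcript (log axis) of the 9 genes, 1 point for each of the 8 libraries, coloured by group. Between HLA-C (mean 270) and PSMB9 (mean 1.34) the levels span more than 2 orders of magnitude, and the distance between groups within a gene is small beside it.

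The 3 heavy chain genes were lower in HCT-8/FU than in HCT-8 and lower in FU-CM than in self-CM. HLA-B (ENSG00000234745, chr6:31353872-31367067 of GRCh38, minus strand) encodes a classical heavy chain that presents peptide to T cells. Its normalized level was 228 and 228 CPM in HCT-8 (replicate 1, then 2), against 141 and 147 in HCT-8/FU, 249 and 257 in self-CM, and 202 and 206 in FU-CM. Both HCT-8/FU libraries therefore lay below the 6 others, and no group overlapped with another. Such separation of 2 libraries from 2 was common. In HCT-8/FU against HCT-8, 6645 of the 20305 tested genes were higher without overlap and 6553 lower.

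Throughout, a gene is said to have risen or fallen where its adjusted p (edgeR's quasi-likelihood test, Benjamini-Hochberg over all 20305 genes, called FDR here) was at most 0.05. It is called DE where the absolute log2 fold change was also at least 0.58. HLA-B fell by 0.67 on the log2 scale in HCT-8/FU against HCT-8 (SE 0.07, FDR = 3e-06), a fold of 0.63. It was the only one of the 9 genes that was DE in this comparison, in which 21.3% of all tested genes were DE, and that call sat near the threshold: with normalization to self-CM replicate 2 in place of HCT-8 replicate 2 the change was -0.58, just short of it, and with the correction for GC content and length it was -0.49 (FDR = 0.0016). HLA-B also fell in FU-CM against self-CM, by 0.31 (SE 0.068, FDR = 0.0044). The FDR was 0.1 without FU-CM replicate 1, 0.061 without replicate 2 of that group and 0.26 with the correction. In GENCODE 44 its exons share 32.7% of their bases with DHFRP2 and MIR6891 on the same strand, and reads of HLA genes can also be split between paralogs, so that its level is uncertain to that extent. Since these are bulk samples, fewer cells of a kind and less RNA per cell cannot be told apart.

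Against HCT-8, neither CM moved HLA-B past the threshold, with a change of 0.15 (SE 0.069, FDR = 0.15) in self-CM and of -0.16 (SE 0.068, FDR = 0.11) in FU-CM, where the FDR was 0.047 and 0.048 without either self-CM library.

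HLA-C (ENSG00000204525, chr6:31268749-31272130, minus strand), also a classical heavy chain and a ligand of receptors on natural killer cells, had 421 and 441 CPM in HCT-8, against 324 and 332 in HCT-8/FU, 496 and 487 in self-CM, and 417 and 418 in FU-CM. The groups again stood apart from each other, in the same order as for HLA-B. HLA-C fell by 0.40 in HCT-8/FU against HCT-8 (SE 0.066, FDR = 0.00022) and by 0.24 in FU-CM against self-CM (SE 0.065, FDR = 0.018). Its exonic GC content of 60.9% was the highest of the 9 genes, and with the correction neither change passed (-0.15, FDR = 0.35, and -0.10, FDR = 0.66). The second change also missed the threshold without HCT-8 replicate 2 (FDR = 0.14) or without either library of FU-CM (FDR = 0.19 and 0.18), and with each other scaling (FDR = 0.068 with DESeq2's size factors and 0.13 with the other reference). Against HCT-8 it changed by 0.19 in self-CM (SE 0.065, FDR = 0.056) and by -0.05 in FU-CM (FDR = 0.66).

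HLA-E (ENSG00000204592, chr6:30489509-30494194, plus strand) encodes a non-classical heavy chain that presents leader peptides of other class I molecules to natural killer cells. It stood at 356 and 363 CPM in HCT-8, against 259 and 236 in HCT-8/FU, 361 and 355 in self-CM, and 283 and 279 in FU-CM. Here the HCT-8 and self-CM libraries overlapped, and both groups lay above the 2 others. HLA-E fell by 0.54 in HCT-8/FU against HCT-8 (SE 0.07, FDR = 2.3e-05), and without HCT-8/FU replicate 1 by 0.61, which would make it DE. It fell by 0.35 in FU-CM against self-CM (SE 0.069, FDR = 0.0022), with an FDR of 0.052 without FU-CM replicate 2. With the correction the first change was -0.32 (FDR = 0.022) and the second -0.19 (FDR = 0.26). Against HCT-8, HLA-E fell by 0.36 in FU-CM (SE 0.069, FDR = 0.0015) and changed by -0.01 in self-CM (FDR = 0.95).

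B2M (ENSG00000166710, chr15:44711358-44718851, plus strand) is the only one of the 9 genes outside the major histocompatibility complex on chromosome 6. Its level was 196 and 181 CPM in HCT-8, against 145 and 141 in HCT-8/FU, 144 and 152 in self-CM, and 138 and 139 in FU-CM. Both HCT-8 libraries exceeded the 6 others. B2M fell by 0.39 in HCT-8/FU against HCT-8 (SE 0.075, FDR = 0.00068), by 0.34 in self-CM against HCT-8 (SE 0.074, FDR = 0.0046) and by 0.44 in FU-CM against HCT-8 (SE 0.073, FDR = 0.00047). These 3 comparisons share the HCT-8 libraries. In FU-CM against self-CM the change was -0.10 (SE 0.074, FDR = 0.39).

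With 41.4%, B2M had the lowest exonic GC content of the 9 genes, and the correction moved it the other way from the heavy chains. The corrected change was -0.76 in HCT-8/FU against HCT-8 (SE 0.094, FDR = 6.3e-05), which made B2M DE, and -0.38 in FU-CM against self-CM (FDR = 0.022). In FU-CM against HCT-8 it was -0.64 and DE as well, whereas in self-CM against HCT-8 it was -0.27 (FDR = 0.088), and without HCT-8 replicate 1 the uncorrected change there was -0.29 (FDR = 0.057). Per kb of transcript, B2M came to 0.352 ± 0.027 (SD, n = 2) of the sum of HLA-B, HLA-C and HLA-E in HCT-8, against 0.376 ± 0.0091 in HCT-8/FU, 0.252 ± 0.011 in self-CM and 0.286 ± 0.00023 in FU-CM. As counted, the ratios in both CM groups lay below all those in unconditioned medium. The ratios are not corrected for GC content and length. In HCT-8/FU against HCT-8 the trend that the correction removes was 0.36 on the log2 scale for B2M. For HLA-B, HLA-C and HLA-E it was -0.18, -0.24 and -0.22. With the correction, the changes in HCT-8/FU against HCT-8 were -0.76 for B2M and -0.49, -0.15 and -0.32 for HLA-B, HLA-C and HLA-E. B2M was thus lowered more than each heavy chain, and the higher mean ratio in HCT-8/FU than in HCT-8 rests on the uncorrected levels. In HCT-8/FU against self-CM the corrected changes were -0.491 and -0.535, -0.129 and -0.151. Corrected ratios were not computed, so that their order among the 4 groups was not tested.

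**Figure D2:**
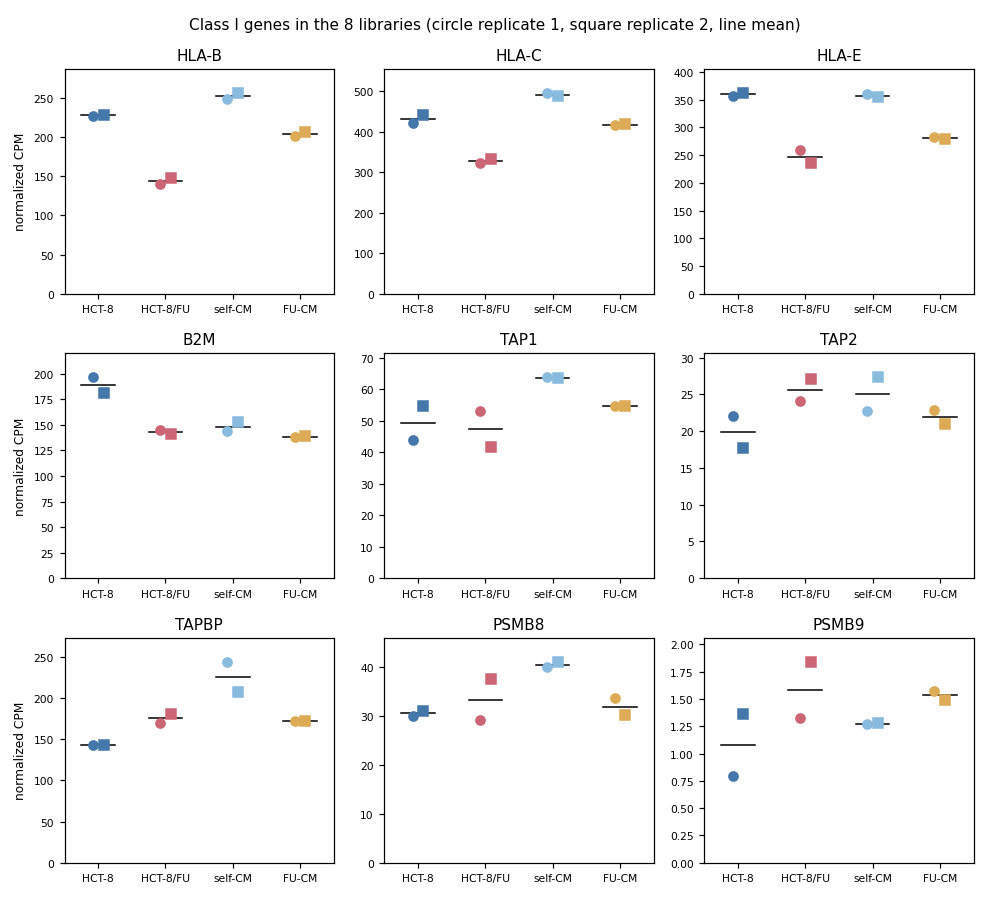
Normalized CPM (vertical axes, each from 0) of the 9 genes in the 4 groups, with replicate 1 as a circle, replicate 2 as a square and the mean as a line. HLA-B, HLA-C and HLA-E are lowest in HCT-8/FU, B2M is highest in HCT-8, and TAPBP is highest in self-CM (244 and 208 CPM) and lowest in HCT-8.

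To set the regulatory sequence of genes that fell in HCT-8/FU against HCT-8 beside that of genes that did not fall there, the 250 bases before the start of HLA-B, HLA-C, B2M, TAPBP and TAP1 were read from RefSeq (GRCh38.p14). Of the 9 genes 8 matched this table, all but HLA-E. Capitals mark matches to the interferon response element (GAAANNGAA or GAANNGAAA) and to a kappaB motif (GGGANTNNC) on either strand, some of which overlap. The windows lie at chr6:31357180-31357429 for HLA-B, chr6:31272093-31272342 for HLA-C, chr15:44711267-44711516 for B2M, chr6:33314079-33314328 for TAPBP and chr6:32853705-32853954 for TAP1. All are on the minus strand but that of B2M, and each is written from 5′ to 3′ in the direction of its gene.
HLA-B: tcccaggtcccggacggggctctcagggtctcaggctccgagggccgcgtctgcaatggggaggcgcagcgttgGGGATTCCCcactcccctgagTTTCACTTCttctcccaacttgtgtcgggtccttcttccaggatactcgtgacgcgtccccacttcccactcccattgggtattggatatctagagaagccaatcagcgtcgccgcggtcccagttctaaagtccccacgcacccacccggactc
HLA-C: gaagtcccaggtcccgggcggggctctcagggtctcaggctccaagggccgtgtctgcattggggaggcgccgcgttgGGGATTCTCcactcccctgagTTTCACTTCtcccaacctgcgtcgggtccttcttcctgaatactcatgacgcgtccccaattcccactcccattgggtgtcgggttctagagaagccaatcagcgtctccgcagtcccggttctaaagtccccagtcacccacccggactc
B2M: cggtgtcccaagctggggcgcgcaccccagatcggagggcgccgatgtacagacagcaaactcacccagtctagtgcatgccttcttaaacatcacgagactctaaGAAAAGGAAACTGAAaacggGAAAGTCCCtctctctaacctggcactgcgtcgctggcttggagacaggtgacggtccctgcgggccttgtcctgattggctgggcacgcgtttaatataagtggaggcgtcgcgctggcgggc
TAPBP: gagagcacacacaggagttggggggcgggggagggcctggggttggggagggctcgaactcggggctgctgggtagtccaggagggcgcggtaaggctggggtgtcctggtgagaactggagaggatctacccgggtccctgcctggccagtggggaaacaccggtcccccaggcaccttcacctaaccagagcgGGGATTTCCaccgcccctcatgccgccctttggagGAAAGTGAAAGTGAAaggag
TAP1: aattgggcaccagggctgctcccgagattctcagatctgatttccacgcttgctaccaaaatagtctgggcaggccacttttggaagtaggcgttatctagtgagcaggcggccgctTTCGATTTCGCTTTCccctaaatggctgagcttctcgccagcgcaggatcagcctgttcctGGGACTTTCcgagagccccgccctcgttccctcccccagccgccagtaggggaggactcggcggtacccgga

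The upstream windows of HLA-B and HLA-C were 89% identical over an alignment of 254 columns, and both held the kappaB match followed by the interferon element. These began 176 and 155 bases before the start of HLA-B, and 172 and 151 bases before that of HLA-C. In B2M the elements stood in the reverse order, at 144 and 138 bases for the interferon element and 124 for kappaB. In TAP1 they began at 133 and 127 bases and 72 bases, and in TAPBP at 20 and 14 bases and 55 bases. An interferon element in either form was found for 6 of the 8 members with a window and in 12.4% of the 35116 promoter windows of the table, and the kappaB letters for 6 members and in 13.2%. The CCAAT box was found for 5 members and in 32% of all windows, and the TGACG core of the cyclic AMP response element for 6 members and in 21.2%. The motifs were chosen after the promoters had been seen. TAPBP and TAP1, which did not fall with the heavy chains in HCT-8/FU against HCT-8, carried the same 2 kinds of match as HLA-B. Of the 5 genes shown these 2 lacked the TGACG core. The core was present in the windows of TAP2, PSMB8 and PSMB9, which did not fall there either. Whether any of these motifs bears on the changes was not tested.

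The peptide-loading genes followed other orders than the heavy chains. TAPBP (ENSG00000231925, chr6:33299694-33314284, minus strand) stood at 143 and 143 CPM in HCT-8, against 170 and 181 in HCT-8/FU, 244 and 208 in self-CM, and 172 and 173 in FU-CM. The HCT-8 libraries were the lowest and those of self-CM the highest, with replicate 1 of the latter above replicate 2. In HCT-8/FU against HCT-8 TAPBP rose by 0.29 (SE 0.084, FDR = 0.014), and the corrected change was 0.43 (FDR = 0.01). The FDR of the uncorrected change was 0.069 and 0.15 without either HCT-8 library, and 0.087 without HCT-8/FU replicate 2. It fell by 0.39 in FU-CM against self-CM (SE 0.081, FDR = 0.0033) and kept an FDR of at most 0.046 without any 1 of the 8 libraries, while with the correction the change was -0.32 (FDR = 0.086). In GENCODE 44 exons of a gene on the other strand cover 21% of its exonic bases.

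TAPBP was the only one of the 9 genes that was DE in self-CM against HCT-8 (8.15% of all genes), with a rise of 0.65 (SE 0.083, FDR = 9e-05) and a corrected change of 0.59 (FDR = 0.0037). Without self-CM replicate 1 it rose by 0.54 and was no longer DE. In FU-CM against HCT-8 the rise was 0.27 (SE 0.082, FDR = 0.028), and the FDR was 0.094 with the correction, 0.11 and 0.19 without either HCT-8 library, and 0.15 and 0.16 without either library of FU-CM. Per kb, TAPBP came to 0.149 ± 0.005 of HLA-C in HCT-8, against 0.239 ± 0.0068 in HCT-8/FU, 0.205 ± 0.021 in self-CM and 0.185 ± 3.6e-05 in FU-CM (SD, n = 2 each). All 6 libraries of the latter groups thus had more TAPBP for each unit of HLA-C than HCT-8, and as counted HCT-8/FU had the most. With the correction, the changes in HCT-8/FU against HCT-8 were 0.43 for TAPBP and -0.15 for HLA-C. In self-CM against HCT-8 they were 0.59 and -0.02, so that the lead of HCT-8/FU rests on the uncorrected levels.

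TAP1 and TAP2 encode the subunits of the peptide transporter. TAP1 (ENSG00000168394, chr6:32845209-32853816, minus strand) had 44 and 54.6 CPM in HCT-8, against 53 and 41.6 in HCT-8/FU, 63.8 and 63.5 in self-CM, and 54.8 and 54.8 in FU-CM. Its HCT-8 and HCT-8/FU libraries overlapped, and both libraries of self-CM were the highest. The change in HCT-8/FU against HCT-8 was -0.05 (SE 0.12, FDR = 0.79), a sign that turned with the other TMM reference (0.04) and with the correction (0.11). In FU-CM against self-CM it was -0.22 (SE 0.11, FDR = 0.21), and in self-CM against HCT-8 0.34 (SE 0.12, FDR = 0.053), with an FDR of 0.04 and 0.039 without either HCT-8/FU library. TAP2 (ENSG00000204267, chr6:32821833-32838739, minus strand) had 22 and 17.8 CPM in HCT-8, against 24.1 and 27.1 in HCT-8/FU, 22.8 and 27.3 in self-CM, and 22.8 and 20.9 in FU-CM.

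TAP2 rose by 0.38 in HCT-8/FU against HCT-8 (SE 0.14, FDR = 0.048), at the edge of the threshold. It passed without 3 of the 8 libraries in turn, the change without HCT-8 replicate 2 was 0.17 (FDR = 0.52), and the FDR was 0.069 with DESeq2 and 0.33 with the correction. Without HCT-8/FU replicate 1 the FDR was 0.088, without replicate 2 of that group 0.18, and without either library of FU-CM 0.086 and 0.083. With the replicate number as a block it was 0.061. In FU-CM against self-CM the change was -0.22 (SE 0.13, FDR = 0.29). Against HCT-8 TAP2 changed by 0.39 in self-CM (SE 0.14, FDR = 0.064), and by 0.50 (FDR = 0.013) without self-CM replicate 1. Per kb of transcript TAP1 exceeded TAP2 in every library, 5.33 ± 1.6 to 1 in HCT-8, against 3.93 ± 0.99 to 1 in HCT-8/FU, 5.38 ± 0.7 to 1 in self-CM and 5.27 ± 0.33 to 1 in FU-CM (SD, n = 2 each). The HCT-8/FU ratios overlapped those of HCT-8 and lay below those of both CM groups.

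PSMB8 and PSMB9 encode catalytic subunits of the immunoproteasome. PSMB8 (ENSG00000204264, chr6:32840717-32844679, minus strand), which replaces the constitutive subunit PSMB5, stood at 29.9 and 31 CPM in HCT-8, against 29 and 37.4 in HCT-8/FU, 39.8 and 41 in self-CM, and 33.5 and 30 in FU-CM. Only self-CM stood apart from the other groups, above them. PSMB8 rose by 0.40 in self-CM against HCT-8 (SE 0.12, FDR = 0.028) and fell by 0.35 in FU-CM against self-CM (SE 0.12, FDR = 0.046), while the change in HCT-8/FU against HCT-8 was 0.08 (SE 0.12, FDR = 0.69) and turned to -0.08 without HCT-8/FU replicate 2. Neither change that passed did so with the correction (FDR = 0.21 and 0.36). Leaving out 1 library, the first passed in 5 of 8 cases, with an FDR of 0.12 and 0.2 without HCT-8 replicate 1 and 2 and 0.08 without self-CM replicate 2. The second passed in 3 of 8, with an FDR of 0.067 and 0.15 without HCT-8 replicate 1 and 2, 0.13 without self-CM replicate 2, and 0.11 and 0.36 without FU-CM replicate 1 and 2.

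PSMB9 (ENSG00000240065, chr6:32844136-32859851, plus strand), the counterpart of PSMB6, lies opposite TAP1. In the RefSeq promoter table, whose start sites differ from the outer ends of the GENCODE 44 genes given here, 487 bases separate the starts of PSMB9 (32854192) and TAP1 (32853704). Only 6 and 46 reads were counted for it in HCT-8, against 40 and 11 in HCT-8/FU, 11 and 34 in self-CM, and 49 and 46 in FU-CM, which came to between 0.79 and 1.84 CPM. Differences in PSMB9 were not detectable at this depth, with a change of 0.35 (SE 0.45, FDR = 0.59) in HCT-8/FU against HCT-8 and 0.26 (SE 0.41, FDR = 0.72) in FU-CM against self-CM. Per kb, TAP1 was 18.1 ± 4.2 times PSMB9 in HCT-8, compared with 11.8 ± 4.6 times in HCT-8/FU (SD, n = 2 each). In GENCODE 44 PSMB8 and PSMB9 overlap each other and PSMB8-AS1. The strand setting of the counting is not stated in the sources used, and without strand reads of overlapping genes on opposite strands cannot be told apart.

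Set against the constitutive subunits they replace, the immunoproteasome subunits stayed in the minority. Per kb of transcript PSMB8 reached 0.429 ± 0.022 of PSMB5 in HCT-8, against 0.601 ± 0.14 in HCT-8/FU, 0.543 ± 0.032 in self-CM and 0.483 ± 0.049 in FU-CM (SD, n = 2 each). PSMB9 reached 0.0249 ± 0.0083 of PSMB6 in HCT-8, compared with 0.0502 ± 0.015 in HCT-8/FU. PSMB10, the other inducible subunit, reached 0.0183 ± 0.0019 of PSMB7 in HCT-8, compared with 0.0243 ± 0.0015 in HCT-8/FU. In all 3 pairs both ratios in HCT-8/FU, and likewise both in FU-CM, exceeded both HCT-8 ratios. The FU-CM means were 0.0381 ± 0.00069 for PSMB9 to PSMB6 and 0.0225 ± 0.00083 for PSMB10 to PSMB7. In self-CM the ratios of PSMB8 and PSMB10 also lay above those in HCT-8, and those of PSMB9 (0.0262 ± 0.0021) overlapped them. The PSMB9 ratios rest on the few reads given for that gene. The constitutive genes moved beneath them: PSMB5 fell by 0.34 (SE 0.092, FDR = 0.0084), PSMB6 by 0.41 (SE 0.11, FDR = 0.0093) and PSMB7 by 0.47 (SE 0.094, FDR = 0.001) in HCT-8/FU against HCT-8. PSMB5 did not pass with the correction (FDR = 0.088), and PSMB6 had an FDR of 0.078 without HCT-8 replicate 2.

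As a group, 4 of the 9 genes fell and 2 rose in HCT-8/FU against HCT-8, where 18.1% of all tested genes fell, 18.6% rose and 21.3% were DE. In FU-CM against self-CM 5 genes fell (HLA-B, HLA-C, HLA-E, TAPBP and PSMB8), none rose and none was DE, beside 8.49% of all genes that fell, 11.2% that rose and 9.25% that were DE. The number of members with an unadjusted p under 0.05 there was also 5, and DESeq2 called none DE either. With the correction none of these 5 genes passed, and B2M was the 1 member that fell in FU-CM against self-CM (0 DE, beside 4.72% of all genes). In HCT-8/FU against HCT-8, 3 members fell and 1 rose with the correction (1 DE, beside 15.2% of all genes). In self-CM against HCT-8 2 genes rose and 1 fell, beside 9.04% and 10.4% of all genes, with 8.15% DE. In FU-CM against HCT-8 1 rose and 2 fell, beside 13% and 11.7%, with 10.4% DE. The median log2 fold change of the 9 genes was -0.05 in HCT-8/FU against HCT-8, beside 0.01 over all genes. Between FU-CM and self-CM it was -0.24, beside -0.06. The first of these medians conceals opposite directions and turned to 0.11 with the correction.

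**Figure D3:**
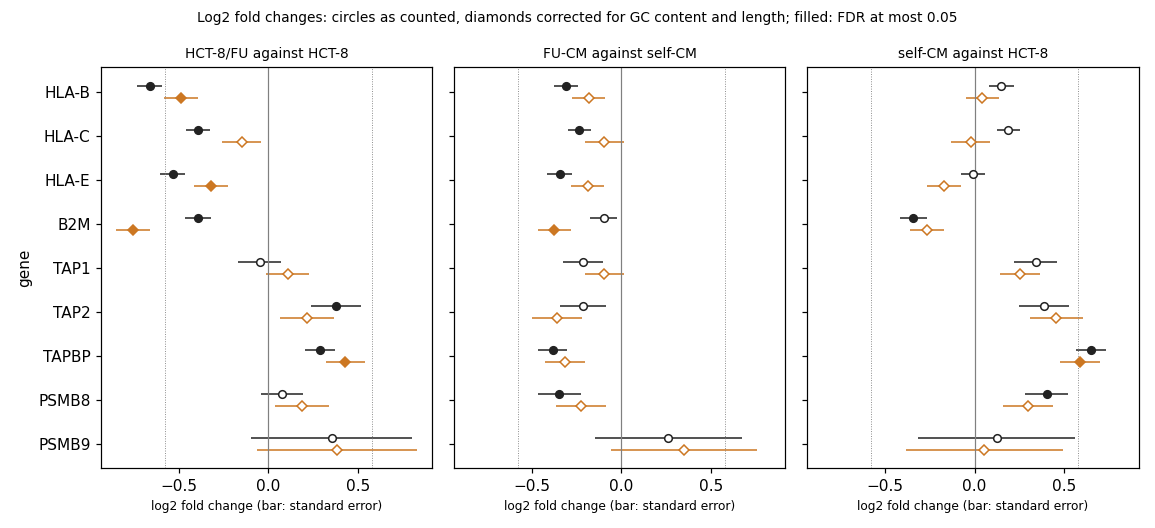
Log2 fold changes (horizontal axes, bars for 1 SE) of the 9 genes in 3 comparisons, as counted (circles) and corrected for GC content and length (diamonds), filled where the FDR was at most 0.05, with dotted lines at the fold threshold. The correction moves HLA-B, HLA-C and HLA-E towards 0 and B2M away from it in the left and middle panels, while TAPBP changes sign between those panels in both fits (0.29 and -0.39 as counted).

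The change in HCT-8/FU and the change under FU-CM were compared by a test of their difference, which uses all 4 groups and no shared control. TAPBP differed by 0.67 (SE 0.12, FDR = 0.0015), since it rose in the first comparison and fell in the second. The corrected difference was 0.75 (FDR = 0.0097), and without self-CM replicate 1 it was 0.54, short of the fold threshold. HLA-B differed by -0.36 (SE 0.097, FDR = 0.027), with the larger fall in HCT-8/FU. Its FDR was 0.2 with the correction, 0.063 without HCT-8 replicate 1, 0.074 without HCT-8/FU replicate 1, and 0.11 and 0.16 without either library of FU-CM. Of all tested genes 11.6% differed at this FDR and 7.69% also passed the fold threshold. The other 7 members did not pass, with TAP2 nearest (0.59, SE 0.19, FDR = 0.061). Without HCT-8 replicate 1 that difference was 0.71 (FDR = 0.048) and without self-CM replicate 1 0.69 (FDR = 0.013), and without HCT-8/FU replicate 1 PSMB8 differed by 0.63 (FDR = 0.036). The difference for B2M was -0.29 (SE 0.11, FDR = 0.091), and -0.35 (FDR = 0.027) without self-CM replicate 2.

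The order of the 4 groups was not the same for every gene. For HLA-B it ran from self-CM (253 CPM) over HCT-8 (228) and FU-CM (204) to HCT-8/FU (144), and only the last step passed the test, with HCT-8/FU below FU-CM by 0.51 (FDR = 0.0006). For HLA-C, in the same order, the last step was -0.35 (FDR = 0.0039), while the first had an FDR of 0.056 and the second of 0.66. In HCT-8/FU against FU-CM these 2 were the genes that fell, beside 6.63% of all genes, and neither passed with the correction (FDR = 0.19 and 0.95). Without either library of FU-CM the FDR of HLA-C in that step was 0.062 and 0.065. For HLA-E the step from self-CM (358) to FU-CM (281) passed, and those between HCT-8 (360) and self-CM (FDR = 0.95) and between FU-CM and HCT-8/FU (247, FDR = 0.11) did not. Without self-CM replicate 1 or 2 the latter FDR was 0.032 and 0.034.

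For B2M the step from HCT-8 (189 CPM) to self-CM (148) passed, and self-CM, HCT-8/FU (143) and FU-CM (139) did not differ beyond their spread (FDR = 0.63 and 0.75), although with the correction B2M fell by 0.49 in HCT-8/FU against self-CM (FDR = 0.0028). For TAPBP both the step from self-CM (226) to HCT-8/FU (175, FDR = 0.0026) and that from FU-CM (172) to HCT-8 (143, FDR = 0.028) passed, and HCT-8/FU and FU-CM between them did not differ beyond their spread (FDR = 0.91). For PSMB8 only the step from self-CM (40.4) to HCT-8/FU (33.2) passed (FDR = 0.046), and without HCT-8/FU replicate 1 the change was -0.12 (FDR = 0.56). It missed the threshold without 6 of the 8 libraries in turn. No step passed for TAP1, TAP2 or PSMB9. Between HCT-8/FU and self-CM, the ends of that order for HLA-B and HLA-C, 6 of the 9 genes fell in HCT-8/FU, beside 20.8% of all genes, by up to 0.82 for HLA-B (SE 0.07, FDR = 3.5e-07). TAP1 fell there by 0.39 (FDR = 0.016), or by less and short of the threshold without HCT-8/FU replicate 2 (-0.27, FDR = 0.12). With the correction 2 fell, HLA-B and B2M, of which B2M was not among the 6, and HLA-C, HLA-E, TAP1, TAPBP and PSMB8 did not pass.

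Beyond these 9, 11 further genes of the class I pathway were examined, of which 10 were tested (HLA-G had at most 2 counts in a library). In HCT-8/FU against HCT-8 2 rose and 3 fell, beside 18.6% and 18.1% of all tested genes. ERAP2, an aminopeptidase that trims peptides in the endoplasmic reticulum, had 35 and 32.4 CPM in HCT-8, against 106 and 107 in HCT-8/FU, 58.4 and 48.7 in self-CM, and 80.1 and 84.5 in FU-CM. It rose by 1.67 in HCT-8/FU against HCT-8 (SE 0.1, FDR = 2.2e-08) and by 0.64 in FU-CM against self-CM (SE 0.095, FDR = 0.00019). No group overlapped another, and the corrected changes were 1.2 (FDR = 4.6e-06) and 0.2 (FDR = 0.27). Its relative ERAP1 changed by 0.05 (FDR = 0.68) as counted and by -0.46 (FDR = 0.0023) with the correction.

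TAPBPL, the TAP-binding protein-related peptide editor, rose by 0.61 in HCT-8/FU against HCT-8 (SE 0.17, FDR = 0.012), and its FDR was 0.079 without HCT-8 replicate 1 and 0.076 without HCT-8/FU replicate 2. The chaperones of the peptide-loading complex moved the other way. CALR (calreticulin) had 5071 and 4714 CPM in HCT-8, against 2621 and 2357 in HCT-8/FU, 4741 and 4252 in self-CM, and 3507 and 3511 in FU-CM. It fell by 0.97 in HCT-8/FU against HCT-8 (SE 0.072, FDR = 1.2e-07), and the thiol oxidoreductase PDIA3 (ERp57) by 0.84 (SE 0.073, FDR = 4.7e-07). CALR fell by 0.36 (FDR = 0.0022) and PDIA3 by 0.41 (FDR = 0.00087) in FU-CM against self-CM as well, and with the correction the changes were -0.21 (FDR = 0.31) and -0.72 (FDR = 0.0012). Calnexin (CANX) fell by 0.23 in HCT-8/FU against HCT-8 (FDR = 0.014), with an FDR of 0.11 under the other TMM reference, 0.1 without HCT-8 replicate 1 and 0.057 without HCT-8/FU replicate 2.

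In FU-CM against self-CM 4 of the 10 genes fell and ERAP2 rose, beside 8.49% and 11.2% of all genes, and the activator subunits of the proteasome were among the former, with PSME1 at -0.43 (SE 0.081, FDR = 0.0016) and PSME2 at -0.31 (SE 0.088, FDR = 0.021). With the correction neither passed (FDR = 0.15 and 0.33). In self-CM against HCT-8 4 of the 10 rose, beside 9.04% of all genes, among them PSME2 by 0.55 (FDR = 0.00076) and ERAP2 by 0.66 (FDR = 0.00038). For PSME2 the fall in FU-CM against self-CM had an FDR of 0.098 without HCT-8 replicate 2, and of 0.19 and 0.16 without either FU-CM library.

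**Figure D4:**
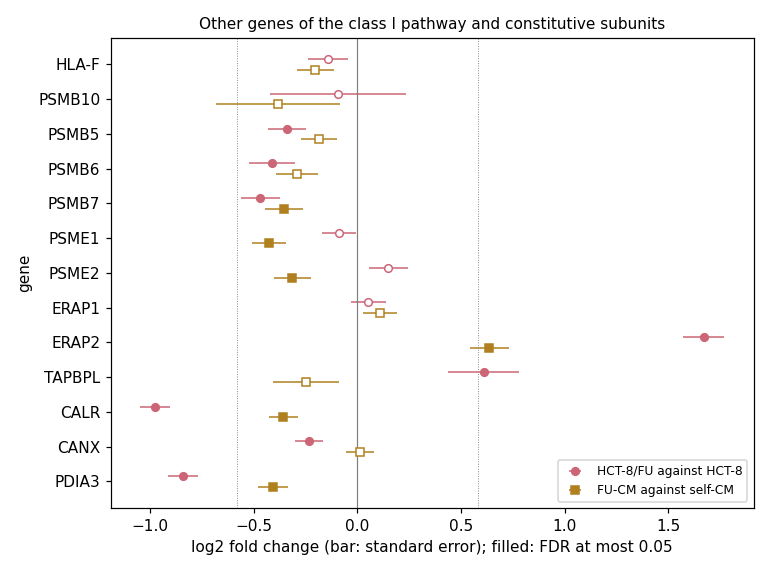
Log2 fold changes (horizontal axis, bars for 1 SE) of 10 further class I pathway genes and 3 constitutive proteasome subunits in HCT-8/FU against HCT-8 (circles) and FU-CM against self-CM (squares), filled where the FDR was at most 0.05. ERAP2 (1.67 and 0.64) lies to the right in both, and CALR (-0.97 and -0.36) and PDIA3 (-0.84 and -0.41) to the left in both.

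Of 12 regulators of class I transcription and interferon signalling, 4 rose and 3 fell in HCT-8/FU against HCT-8, beside 18.6% and 18.1% of all genes. NLRC5, the transactivator of class I genes, changed by -0.10 (SE 0.1, FDR = 0.48) in this comparison and by -0.18 (SE 0.097, FDR = 0.23) in FU-CM against self-CM. Of its partners in the promoter complex, RFXAP changed by 0.99 (SE 0.18, FDR = 0.00049) and RFXANK by -0.79 (SE 0.1, FDR = 2.4e-05) in HCT-8/FU against HCT-8. RFX5 changed there by 0.01 (SE 0.13, FDR = 0.95). IRF1, a transcription factor induced by interferon, fell by 0.44 (SE 0.13, FDR = 0.014), while IRF2 rose by 0.45 (SE 0.14, FDR = 0.017). The interferon receptor gene IFNGR2 rose by 0.27 (SE 0.09, FDR = 0.028). Of the interferon receptor kinases, JAK1 fell by 0.66 (SE 0.071, FDR = 3.6e-06) and JAK2 rose by 1.33 (SE 0.27, FDR = 0.0011) from 2.11 and 4.26 CPM to 9.54 and 7.86, although JAK2 had an FDR of 0.064 with the correction. For IRF1 the FDR was 0.18 without HCT-8 replicate 2 and 0.058 without HCT-8/FU replicate 2. JAK2 rose in FU-CM against self-CM too, by 1.26 (SE 0.28, FDR = 0.0049; 0.18 with the correction) and STAT2 fell by 0.27 (SE 0.083, FDR = 0.034; 0.097 with the correction), beside 11.2% and 8.49% of all genes, and the other 10 did not pass. STAT2 passed there without 3 of the 8 libraries in turn and had an FDR of 0.27 without FU-CM replicate 2.

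The mean pattern of the 9 genes over the 8 libraries lay between -0.16 and -0.084 in HCT-8/FU on a log2 scale centred on each gene, and was highest in self-CM, at 0.18 and 0.19. HCT-8 lay between -0.085 and 0.0022 and FU-CM between -0.041 and -0.0052. The lower HCT-8 library, in which PSMB9 stood at -0.72 from 6 reads, overlapped HCT-8/FU. Among 12354 genes outside the lists with at least 5 CPM, those nearest to this pattern were ADCY3 (root mean square difference 0.021), ZNF185 (0.03), NDUFS8 (0.031), TUBB6 (0.032) and SPATA20 (0.034). The members themselves lay between 0.12 (HLA-C and PSMB8) and 0.34 (PSMB9) from their own mean. The genes named before were picked as the nearest of 12354, so that the distance of the members cannot be judged against theirs. All 8 libraries enter these differences, and genes within a library share its depth and base composition.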

How the data were processed

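RNA-seq was measured in 8 libraries, 2 in each of 4 groups taken from the sample labels. Per the submitters' notes, alignment to GRCh38 used HISAT2 and gene counting used HTSeq 0.11.2 with Ensembl release 94, and the authors deposited raw counts for each library. Lines that name no gene (no feature 33.7% to 49.6% of records, low quality 2.20% to 5.77%, not unique 2.24% to 3.48%, ambiguous 1.15% to 1.57%, not aligned as given above) entered neither the library sizes nor any test. The authors also deposited DESeq2 tables of their own comparisons (fold changes and p-values), which were not used.

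Names, positions, lengths and GC content came from GENCODE 44, in which 56105 of the 64253 identifiers were found, and 19857 of the 20305 tested genes had a length and a GC content. Counts were fitted in R 4.3.3 with edgeR 4.0.16 (TMM with HCT-8 replicate 2 as reference, filterByExpr, quasi-likelihood test, group means of all 8 libraries). The SE of a log2 fold change was taken as its size over the root of F. The thresholds are those of the study, a fold of 1.5 (0.58 on the log2 scale) and an FDR of 0.05. The GC correction subtracts a spline with 5 degrees of freedom per library. Counts set the precision, and errors of single levels are the spread of 2 libraries. Alternatives were DESeq2's size factors, another TMM reference, other filters, DESeq2 1.42.0, only the groups compared, a replicate block, a term for the 3 libraries with over 15% not aligned, and leaving out each library. The union of exons as length was added after the data were seen.

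On simulated counts for HCT-8/FU against HCT-8, with 200 of 19787 genes changed by a fold of 2, edgeR recovered 74% with 1 false call. A trend on GC content and length, fitted to these data with the spline of the correction, was then added to the simulated counts. There were 1323 false calls among 19873 genes without the correction, and 2 among 19445 genes with it. Since the correction fits the form that was added, this outcome was fixed in advance. It does not show that the correction suits the real libraries. The members and lists were chosen with earlier results of these data known. Every member was named, and other listed genes mainly where they passed. A few genes of the fixed lists are not reported here. No protein, splicing or cell surface data were analysed here.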

Additional observations from a re-analysis of the deposited data

Results flagged for a closer look

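TAPBP was singled out because its change in HCT-8/FU against HCT-8 and its change in FU-CM against self-CM differed by a test of the difference itself. The difference was 0.673 on the log2 scale (SE 0.12, edgeR FDR = 0.0015), with a rise of 0.29 in the first comparison and a fall of 0.39 in the second. In each comparison the libraries of the 2 groups did not overlap, which is common in these data. In the first, 6645 of the 20305 genes were higher without overlap and 6553 lower. In the second these numbers were 5464 and 7004. Leaving out each library in turn gave differences from 0.54 to 0.77. Without self-CM replicate 1, whose level of 244 CPM was the highest of the 8, the difference was 0.54. In that library 29.6% of the records were not aligned, and with a term for the 3 such libraries the difference was 0.61 (FDR = 0.00036). The part of read alignment in this result was not tested further.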

How the results depend on the processing

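Of the alternatives tried for each member and comparison, 773 values kept their direction and their DE call, 8 became DE, 5 were no longer DE and 15 turned in sign. A change that was not DE and lost only the FDR threshold is counted among the 773. HLA-C in HCT-8/FU against HCT-8 is such a case, with an edgeR FDR of 0.00022 as counted and 0.35 with the correction. None of the 5 members that fell in FU-CM against self-CM kept an FDR of at most 0.05 with the correction. With self-CM replicate 2 as TMM reference the DE members in HCT-8/FU against HCT-8 were 0 in place of 1, and those over all 6 pairs of groups 2 in place of 4. The other pathway genes DE in FU-CM against self-CM numbered 1, and 0 to 1 with single libraries left out (0 without self-CM replicate 2). Without the fold threshold the members passing were 6, 5, 3 and 3 in the 4 comparisons in the order given, 2 for the difference, 25 over all pairs, and 5 other pathway genes in the second comparison. With the correction, with or without the block, 1 member was DE in FU-CM against HCT-8 in place of 0. Leaving out 1 library gave 1 to 2 DE members in HCT-8/FU against HCT-8, 0 to 1 in self-CM against HCT-8 1 to 2 for the difference and 3 to 6 over all pairs. The cause of these changes was not tested.

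No value that turned in sign had passed the test. TAP1 in HCT-8/FU against HCT-8 became 0.0421 with the other reference, 0.108 with the correction, 0.104 with the correction and the block, and -0.277 to 0.108 without single libraries. HLA-C became 0.0283 with the other reference in FU-CM against HCT-8, and in self-CM against HCT-8 -0.0209 with the correction and -0.021 with the block too. Without single libraries the ranges were -0.0953 to 0.615 for PSMB9 in self-CM against HCT-8, -0.142 to 0.558 for its difference, -0.0645 to 0.288 for the difference of TAP1, -0.0804 to 0.284 for PSMB8 in HCT-8/FU against HCT-8, and in FU-CM against HCT-8 -0.0236 to 0.135 for PSMB8 and -0.0161 to 0.299 for TAP2.

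The labels link replicates of different groups by a number only. The correlation of their deviations between same-numbered libraries ran from -0.12 to 0.13. It cannot show whether libraries with different numbers share a batch, and the 3 libraries with over 15% not aligned do not share 1 number. With the replicate number as a block 1 member was DE in HCT-8/FU against HCT-8 and 0 in FU-CM against self-CM, the same counts as without it. By the FDR alone, TAP2 in HCT-8/FU against HCT-8 (0.061) and PSMB8 in FU-CM against self-CM (0.058) and in HCT-8/FU against self-CM (0.06) missed the threshold. The DE calls over all genes numbered 4325 in HCT-8/FU against HCT-8 and 1878 in FU-CM against self-CM.

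Groups of 2 limit the estimate of the spread, which all 4 groups share.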
